A study of Arabidopsis thaliana with 40 samples.

Results

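Histone H3 acetylated at lysines 9 and 14 (H3K9/14ac) was compared between the stretches around the centromeres of Arabidopsis thaliana and the chromosome arms. Regions of the authors' differential binding tables were taken by position alone, with the midpoint between 12000 and 18000 kb on chromosome 1, 1500 and 7000 kb on chromosome 2, 11000 and 16500 kb on chromosome 3, 2500 and 6000 kb on chromosome 4, or 10000 and 14500 kb on chromosome 5. These windows held 680 of the 13362 regions, or 5.09% of them, in 25 Mb, which is 21.0% of the 119 Mb reaching to the last annotated gene of each chromosome. The other 12682 regions lay on the arms.

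The chromatin came from 7-day-old Col-0 seedlings in shaken liquid culture with sucrose under short days. The treatments were water, GSNO (S-nitrosoglutathione, which releases nitric oxide) at 250 µM, GSH (glutathione, the same peptide without the nitroso group) at 250 µM, 250 µM GSNO together with the nitric oxide scavenger cPTIO at 500 µM, and TSA (trichostatin A, which blocks histone deacetylases) at 5 µM. Treatment lasted 3 h or 16 h, with 2 biological replicates of each, and every culture gave a ChIP and an input library. Whole seedlings were used, so fewer acetylated cells and less acetylation per cell cannot be told apart. Of markers for other tissues, 2 of 4 root genes, 2 of 4 shoot genes and 0 of 3 seed storage genes had a region.

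Acetylated H3 marks the start of active genes, where acetyl groups loosen the contact of DNA with the nucleosome and are bound by activators. Acetyltransferases place the groups and deacetylases remove them. The DNA flanking plant centromeres is packed into heterochromatin. It is rich in transposons and methylated DNA, carries methylation at lysine 9 of H3 in place of acetylation, and holds genes as scattered islands. Chromosome 2 of Arabidopsis also carries a large insertion of mitochondrial DNA near its centromere.

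Across all regions, the 17 libraries whose reads could be recovered from the tables held between 1590342 reads (water, 16 h) and 4053207 (GSNO, 3 h, library b), and the median region near the centromeres held from 95 to 258 reads. The shallower recovered library of a group is named a and the deeper b, and reads were normalised within each time. Water at 16 h had a single recovered library, which served all 3 comparisons of that time. The peak lists of water replicate 2 and TSA replicate 2 at 16 h stood apart, with 1044 and 344 peaks on the 5 chromosomes against 6005 to 14736 in the other 18 lists. TSA at 16 h has no table. Which water replicate the tables use at 16 h is not stated, and shares of peaks are given with and without them.

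Regions were sparse near the centromeres. There were 27.2 per Mb in the windows and 134.7 per Mb on the arms, a ratio of 0.202. The count in the windows was 236 on chromosome 1, 167 on chromosome 2, 109 on chromosome 3, 93 on chromosome 4 and 75 on chromosome 5. The ratio to the arms of the same chromosome was 0.3, 0.221, 0.139, 0.204 and 0.125 in that order, so density was lower in all 5 windows. Within 0.5 Mb of a window's edge there were 61.2 regions per Mb inside and 78.8 outside, and edges therefore fell on a slope.

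The annotation also thins out there, but the regions thinned out more. The windows held 87.1 protein-coding genes per Mb, against 268.4 on the arms. Of the 2178 protein-coding genes with their midpoint in a window, 608 overlapped a region (27.9%), against 50.5% of 25266 on the arms. The share was 34.9% on chromosome 1, 32.5% on chromosome 4, 25.8% on chromosome 2, 22.2% on chromosome 5 and 21.5% on chromosome 3, all below the 49.3% to 52.1% of the arms. Genes annotated as pseudogenes, a class that also takes transposon genes in this annotation, numbered 3411 in the windows. Only 37 of these overlapped a region (1.08%), against 79 of 1432 on the arms (5.52%).

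**Figure D1:**
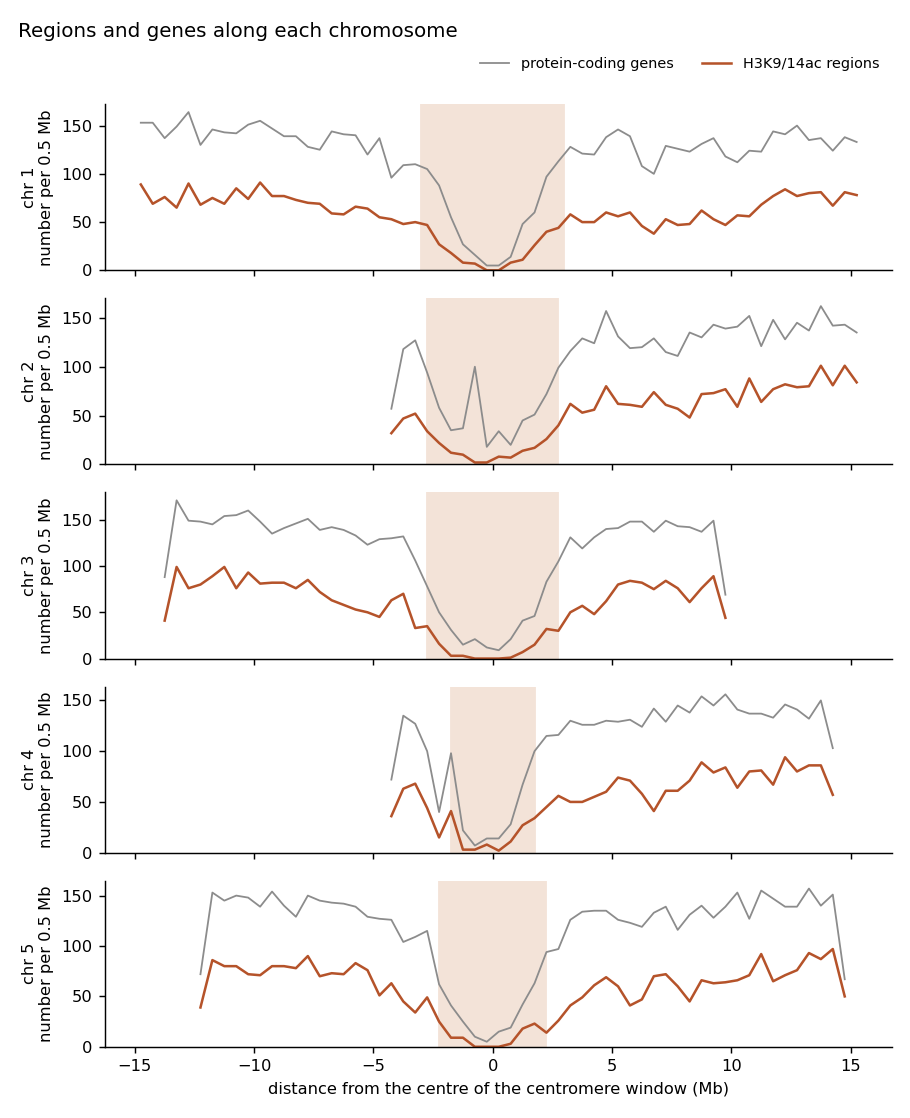
Number of H3K9/14ac regions (brown) and of protein-coding genes (grey) in each 0.5 Mb of the 5 chromosomes, by distance in Mb from the centre of the centromere window (shaded); the end bins of a chromosome are partly filled. Regions drop to 0 in 8 of 46 bins inside the windows, while the median bin outside holds 66.5.

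Each window contained a long stretch without any region. It ran over 1.36 Mb on chromosome 1 (14286086 to 15650253), 0.613 Mb on chromosome 2 (3057118 to 3669897), 2.16 Mb on chromosome 3 (12560087 to 14722226), 0.540 Mb on chromosome 4 (2817028 to 3356765) and 2.08 Mb on chromosome 5 (11024904 to 13102391). The longest such stretch on the arms measured from 0.0761 Mb to 0.144 Mb. The stretches were not free of annotated genes, with 14, 108, 67, 12 and 43 protein-coding genes on chromosomes 1 to 5. The 108 of chromosome 2 lie in the neighbourhood of the mitochondrial insertion, and the sources used here do not say how reads with several matches in the genome were counted.

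The regions that flanked these stretches were of several kinds. On chromosome 1 they were the non-coding RNA gene AT1G07027 and the protein-coding AT1G41880, and on chromosome 2 AT2G07360 and a region over AT2G09800 and AT2G09795. On chromosome 3 they were a region without a gene (12559460 to 12560086) and AT3G42630. On chromosome 4 they were IBR1, an enzyme that turns indole-3-butyric acid into auxin, and AT4G06534. On chromosome 5 they were PHL1, a transcription factor of the phosphate starvation response, and a region without a gene (13102392 to 13103133). In water at 3 h the 10 ranged from 163 normalised reads per kb at AT4G06534 to 451 at AT1G07027. The 10th percentile of the members was 112 and 145 in libraries a and b, and the 90th 417 and 381. AT1G07027 was therefore among the higher members.

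Where a region was present, its level was close to that on the arms. In water at 3 h the median region near the centromeres held 222 and 231 normalised reads per kb in libraries a and b, and on the arms 227 and 232. The difference of the medians was -0.04 on the log2 scale for the mean of both libraries, with -0.03 and -0.01 for each alone. Members were spread over the whole range of level, with 11.2% of them in the lowest of 10 equal classes of all regions and 8.53% in the highest. Regions near the centromeres were slightly shorter, with a median width of 697.5 bp against 722 bp.

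The most densely acetylated of the 680 was SADHU1-1 (AT2G10410; chromosome 2, 4006289 to 4006886), a Sadhu retroelement annotated as a pseudogene, at 967 normalised reads per kb. It was followed by AT1G43245 (891 per kb), AT4G04925 (719), ADT4 (703), an arogenate dehydratase of phenylalanine synthesis, and AT1G35560 (648). The lowest 5 in water at 3 h were LHCB2.1 (25.2 per kb), LHCB2.2 (31.2) and CH1 (33.7), all of light harvesting, NAC3 (89.6), a NAC transcription factor, and CHR5 (92.1), a chromatin remodeller. At NAC3 library a had 4 reads and library b 149, and at CHR5 they had 9 and 134, so these low means rest on 1 library.

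By gene content, 607 of the 680 regions (89.3%) overlapped a protein-coding gene, 33 only a pseudogene or transposon gene (4.85%), 27 only a non-coding RNA gene (3.97%) and 13 no annotated gene (1.91%). On the arms 98.1% overlapped a protein-coding gene, and the other classes made up 0.473%, 1.18% and 0.276%. Regions outside protein-coding genes were therefore 10.7% of the members and 1.93% of the arms. As 1 class they had medians of 233 and 242 normalised reads per kb in the 2 water libraries against 222 and 230 for members at protein-coding genes, but the 13 without a gene were lower, at 161 and 217. Beside SADHU1-1, the highest of the pseudogene class were SADHU1-3 (544 per kb) on chromosome 5 and the region at SADHU2-1 (510 per kb) on chromosome 1. Sadhu elements occur in many related copies, so the reads of a copy cannot be told apart with certainty. The highest regions without a gene were at 14811131 to 14811713 on chromosome 3 (290 per kb), 2716635 to 2717326 on chromosome 4 (280) and 5861494 to 5862318 on chromosome 2 (218).

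Peak lists, made for each library, gave the same picture of sparseness. In the 10 lists of 3 h, between 4.16% and 5.53% of peaks lay in the windows. Both TSA lists were lowest, at 4.44% (95% Wilson interval 4.11 to 4.80) and 4.16% (3.8 to 4.54), and the other 8 ranged from 4.80% to 5.53%. The intervals cover counting error only. At 16 h, 8 lists ranged from 4.61% to 5.26%, TSA replicate 1 among them at 4.73%. Water replicate 2 of 16 h had 35.2% of its peaks in the windows (95% interval 32.3 to 38.1), more than the 21.0% of the length that they take up. None of those 367 peaks overlapped a region of the tables, and 20.7% overlapped a protein-coding gene, against 84.7% to 91.7% in the 18 lists other than these 2. In TSA replicate 2 of 16 h it was 11.3% (8.41 to 15.1), from 39 peaks.

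TSA at 3 h was the treatment under which acetylation near the centromeres differed from the arms. At a false discovery rate (FDR) under 0.05 in the authors' deposited table, the fallen regions numbered 121 of the 680 and the risen ones 49. Over all regions 10.1% were called lower and 10.7% higher. Near the centromeres 17.8% fell and 7.21% rose, and on the arms 9.71% fell and 10.9% rose. Genes of light harvesting led the rises, while the falls included 14 of the 27 regions at non-coding RNA genes. Limma on the recovered reads called 113 of the 680 lower and 24 higher (16.6% and 3.53%), against 9.93% and 6.28% of the arms, and 10.3% and 6.14% of all regions. Each library carried part of the count. Limma called fewer falls with any TSA or water library left out, and fewer rises except without water library b. The limma difference of median folds near the centromeres minus the arms then ranged from -0.18 to -0.14.

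The shift was present in both TSA libraries. Of the reads in regions, 4.26% and 4.30% lay near the centromeres with TSA, and 4.56% to 4.80% in the 15 other libraries, with no overlap. The median level near the centromeres minus that on the arms was -0.17 and -0.18 log2 units with TSA, and between -0.08 and 0.00 in the other 15. The median region near the centromeres held 217 and 214 normalised reads per kb with TSA, and 216 to 232 in the 8 other libraries of 3 h. On the arms it held 244 and 242 with TSA, above the 227 to 233 of those 8. TMM scaling centres each library on all regions, and these are mostly on the arms, so the values show a change relative to the arms and not in total acetylation.

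**Figure D2:**
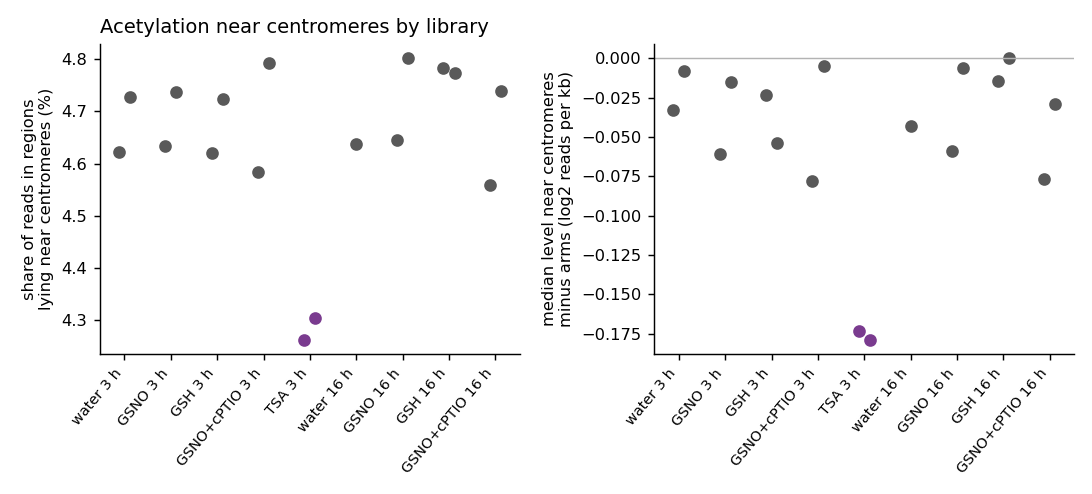
Left, share of reads in regions that lie near the centromeres, in percent; right, median level near the centromeres minus that on the arms, in log2 normalised reads per kb. Each point is 1 of 17 libraries, and the 2 TSA libraries (purple) are at 4.26% and 4.30%, below all 15 others.

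The median log2 fold of TSA over water in the authors' deposited table was -0.14 near the centromeres and 0.01 on the arms, a difference of -0.15. Folds were below 0 at 62.8% of the members and 49.3% of the arms. The members' medians were -0.10, -0.12, -0.18, -0.22 and -0.12 on chromosomes 1 to 5, and those of the arms lay from 0.00 to 0.03. Called falls took 11.0% of the members on chromosome 1, 19.2% on chromosome 2, 22.0% on chromosome 3, 24.7% on chromosome 4 and 21.3% on chromosome 5. On the arms they took 9.61%, 9.54%, 10.9%, 10.1% and 8.70% in that order. The 236 members on chromosome 1 were thus close to its arms in calls, with 9.75% called higher against 10.0%. The 47 regions within 0.75 Mb of the middle of the longest empty stretch had a median fold of -0.35. Of these, 12 fell (25.5%) and 3 rose (6.38%), beside 10.1% and 10.7% of all regions. Beyond 0.75 Mb the members' medians lay between -0.11 and -0.14. The shift ran on past the windows: the 394 regions within 0.5 Mb outside an edge had a median of -0.10 and 11.7% called lower, against -0.14 and 18% of the 306 within 0.5 Mb inside. Arm regions from 2 to 5 Mb from the middle of the empty stretch had a median of -0.05.

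The TSA fold depended on the level of a region everywhere. Regions were sorted into 10 classes of equal size, from 1 (lowest) to 10, by normalised reads per region and not per kb. The reads were those of the 6 libraries of GSNO, GSH and GSNO with cPTIO at 3 h, which are not in the fold. On the arms the median fold went from 0.53 in class 1 to -0.44 in class 10. Near the centromeres it was 0.28 in class 1 and -0.51 in class 10. It was lower near the centromeres in 10 of 10 classes, by differences of -0.07 to -0.30 with a mean of -0.21. Called falls were more frequent near the centromeres in 9 of the 10 classes. In classes 8 and 9 the falls took 35.6% and 46.4% of the members, against 10.7% and 17% of the arms. Level per kb was not matched within a class, and in every class the members had the higher median in water at 3 h. In classes 8 and 9 it was 8.39 and 8.66 log2 reads per kb, against 8.26 and 8.51 on the arms.

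**Figure D3:**
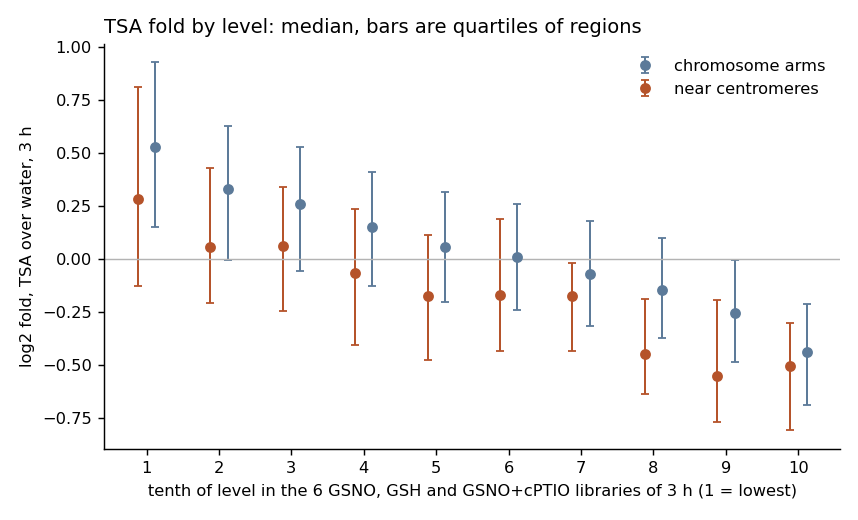
Log2 fold of TSA over water at 3 h in the authors' table, by class of normalised reads per region (1 lowest, 10 highest) in 6 libraries outside the fold. Points are medians over regions near the centromeres (brown) or on the arms (blue), and bars run from the first to the third quartile. The brown median is below the blue one in all 10 classes.

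Gene content moved with the fold as well. At protein-coding genes the median TSA fold was -0.11 near the centromeres (607 regions) and 0.02 on the arms, with 15.7% and 9.40% called lower. At pseudogenes and transposon genes it was -0.28 (33 regions) and -0.07 (60), with 24.2% and 13.3% called lower. At non-coding RNA genes it was -0.68 (27 regions) and -0.39 (150), and 14 of the 27 members fell (51.9%) while 0 rose, with 29.3% called lower on the arms. These members also had a higher level in water at 3 h, with medians of 266 and 286 normalised reads per kb against 202 and 226 on the arms. The part of level in this contrast was not tested. Regions without a gene had -0.46 (13) and -0.42 (35), with 30.8% and 31.4% called lower.

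**Figure D4:**
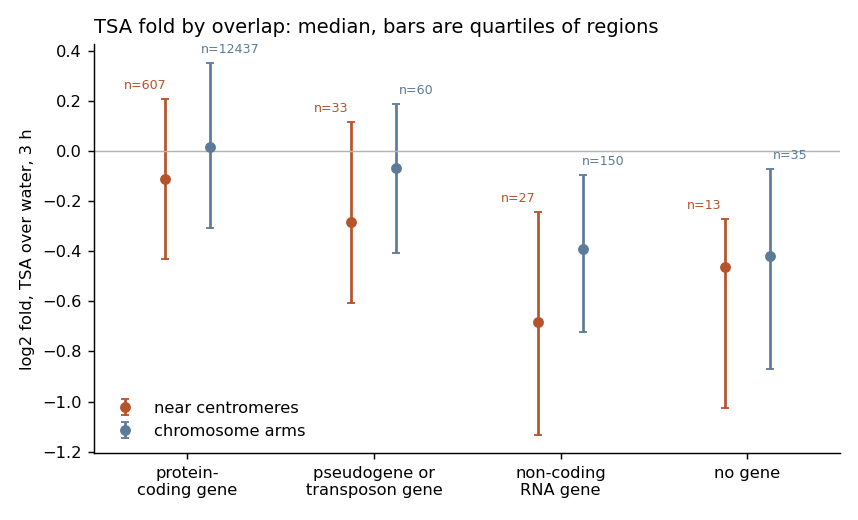
Log2 fold of TSA over water at 3 h in the authors' table for 4 classes of overlap, near the centromeres (brown) and on the arms (blue), with the number of regions beside each; points are medians and bars run from the first to the third quartile of regions. Non-coding RNA genes near the centromeres have the lowest median, -0.68.

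Among the 10 largest TSA rises, 4 were genes of the photosynthetic membrane or its pigments. LHCB2.1 and LHCB2.2 encode light-harvesting proteins of photosystem II, CH1 is chlorophyllide a oxygenase, which makes chlorophyll b, and NPQ4 is the PsbS protein that dissipates excess light. LHCB2.1 (AT2G05100; chromosome 2, 1823578 to 1824356) had 177 and 150 normalised reads with TSA and 19.7 and 19.5 in water, with a log2 fold of 3.05 (FDR = 3.25e-21, the authors' deposited table). The TSA libraries stood far above both water libraries. CH1 (AT1G44446; chromosome 1, 16850453 to 16851204) had 217 and 163 against 1.41 and 49.2, and the fold was 2.91 (FDR = 0.000183, the authors' deposited table). The lower water value comes from 1 read. LHCB2.2 (AT2G05070; chromosome 2, 1799720 to 1800317) had 109 and 115 against 36.6 and 0.781, the latter again 1 read (log2 fold 2.57, the authors' deposited table). LHCB2.1 and LHCB2.2 are near-identical copies, so reads may be split between them. NPQ4 (AT1G44575; chromosome 1, 16871802 to 16872601) had 186 and 191 against 54.9 and 67.2, with no overlap, and a fold of 1.62 (FDR = 2.32e-08, the authors' deposited table).

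The other 6 were COR413-PM1, a cold-regulated membrane protein (1.82), AT1G45110 (1.46), AT1G35780 (1.43), AT5G35170 (1.4), AT1G34340 (1.34) and CPZ (1.21), all log2 folds of the authors' deposited table. COR413-PM1 (AT2G15970; chromosome 2, 6950164 to 6951062) had 218 and 204 normalised reads with TSA and 59.1 and 60.1 in water. Its 2 groups were far apart relative to the spread within them. Limma called 6 of the 10 (adjusted p from 0.00199), and missed LHCB2.1 (adjusted p = 0.068), LHCB2.2 (0.24), AT1G45110 (0.057) and CPZ (0.39).

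Of the 10 largest falls 5 were at protein-coding genes. The 10 were AT4G05070 (-1.50), AT4G05150 (-1.47), a region without a gene on chromosome 4 at 5036842 to 5037401 (-1.4), AT1G35430 (-1.4), the non-coding RNA genes AT4G06701 (-1.37) and AT1G07027 (-1.36), a region without a gene on chromosome 3 at 14811131 to 14811713 (-1.32), a cluster of small nuclear RNA genes with U1.14p and U4.10 (-1.32), AT2G15580 (-1.31) and AT2G14825 (-1.28), as log2 folds of the authors' deposited table. Limma called 9 of the 10, and missed the small nuclear RNA cluster (adjusted p = 0.067).

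AT4G05150 (chromosome 4, 2661661 to 2662256) had 97.0 and 134 normalised reads with TSA and 356 and 280 in water. Limma gave -1.46 ± 0.19 (SE; adjusted p = 7.21e-05), and the groups did not overlap. At AT1G07027, the last region before the empty stretch of chromosome 1, TSA gave 109 and 134 against 321 and 298. The limma log2 fold there was -1.35 ± 0.17 (SE; adjusted p = 7.49e-05). The region without a gene on chromosome 3 had 73.3 and 62.9 with TSA against 196 and 143 in water. PHL1, at the edge of the empty stretch of chromosome 5, fell from 184 and 206 to 89.1 and 83.9, a log2 fold of -1.18 (FDR = 2.91e-05, the authors' deposited table).

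The most densely acetylated members fell with TSA. All 5 of the highest in water were called lower in the authors' deposited table, with log2 folds of -1.0 at SADHU1-1, -1.06 at AT1G43245, -1.09 at AT4G04925, -0.89 at ADT4 and -0.96 at AT1G35560. They were chosen by their level in the water libraries that are also in the fold, so no more is read from their count. SADHU1-1 had 265 and 318 normalised reads with TSA, and the other 3 h libraries all lay higher, with 612 and 544 in water. SADHU1-3 fell from 325 and 309 to 200 and 179 (log2 fold -0.75, the authors' deposited table), and the region at SADHU2-1 had -0.37 and missed the threshold.

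**Figure D5:**
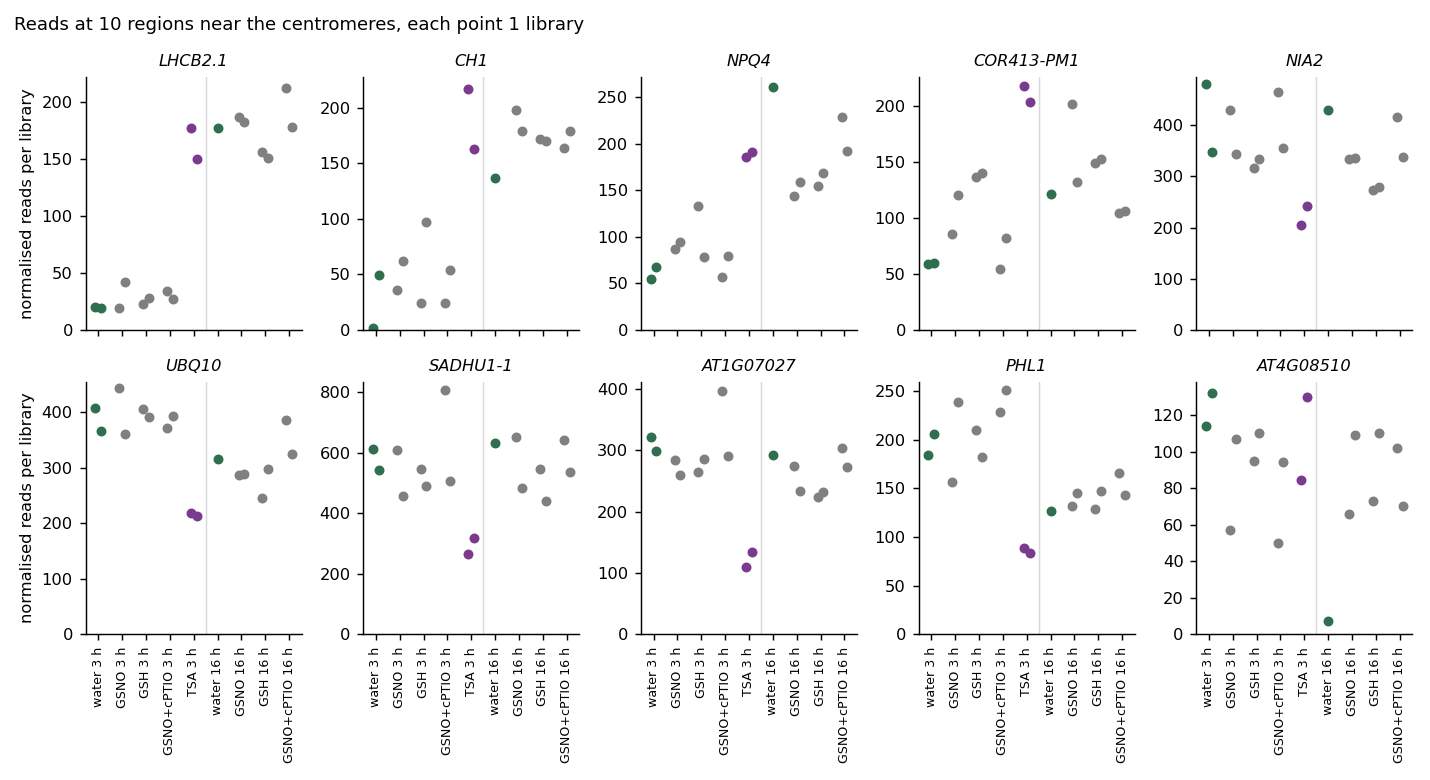
Normalised reads per library at 10 regions near the centromeres, each point 1 library: water in green, TSA in purple, other treatments in grey; libraries of 3 h (left of the line) and 16 h were normalised separately. At LHCB2.1 TSA gave 177 and 150 against 19.7 and 19.5 in water, and at AT4G08510 the single water library of 16 h stands at 7.36.

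Gene groups were read from 8 lists of 59 genes, of which 56 lay in the windows and 41 had a region there. The lists are short and were written with earlier results of these data known. Their counts are therefore not set apart from the 17.8% of members that fell and the 7.21% that rose. For photosynthesis and photorespiration 4 of 7 regions rose with TSA, LHCB2.1, CH1, LHCB2.2 and NPQ4, and 1 fell, GAPB, a subunit of the Calvin cycle's glyceraldehyde-3-phosphate dehydrogenase (-0.80), the median being 1.62 on the log2 scale of the authors' deposited table. LHCB2.1, LHCB2.2 and CH1 were also the lowest members in the water libraries that are in the fold, so no more is read from this count. AGT, a photorespiratory aminotransferase (0.41), and PSBQ-2, a subunit of photosystem II (-0.40), missed the threshold. The median over all regions was 0.00. For nitrogen assimilation 1 of 4 regions fell and 0 rose. It lay at NIA2, the main nitrate reductase (AT1G37130; chromosome 1, 14158714 to 14159492), with 204 and 243 normalised reads against 480 and 347 in water and a fold of -0.90 (FDR = 0.00351, the authors' deposited table). A second NIA2 region beside it had a fold of -0.03. NIR1, nitrite reductase, had 0.49 and GS2, chloroplast glutamine synthetase, -0.10, both short of the threshold.

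For light, clock and hormones 2 of 7 regions fell and 0 rose. They were CRY1, the blue light receptor (-0.68), and SOS2, a kinase of salt tolerance (-0.97), as log2 folds of the authors' deposited table. OPR3, an enzyme of jasmonate synthesis, had a fold of -0.61 at an FDR of 0.055 there and an adjusted p of 0.031 in limma. For protein folding, turnover and signalling 2 of 9 fell and 0 rose, UBQ10, a polyubiquitin gene (-0.85), and GRF1, a 14-3-3 protein (-0.91). UBQ10 (AT4G05320; chromosome 4, 2718359 to 2719744) had 219 and 213 normalised reads with TSA and 407 and 366 in water, and the groups were well separated. RD21A, a cysteine protease, had a fold of -0.34 that missed the threshold.

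For immunity and stress 1 of 8 regions rose, COR413-PM1, and 0 fell. BZIP60, a factor of the unfolded protein response, had a fold of -0.50 and AT4G08850, a receptor-like kinase gene, -0.35 and -0.11 at its 2 regions, none called. For sugar, energy and amino acids 0 of 7 regions were called with TSA, with folds from -0.23 to 0.47, both at ERD5, a proline dehydrogenase. Of the histone deacetylases themselves, HDA9 had a fold of -0.15 and HDA3 0.40, and neither was called. The 3 developmental genes KNAT1, TT2 and WVD2 had no region. Genes of the lists without a region also included PR1, the marker gene of salicylic acid responses, and RPP1, a disease resistance gene.

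The nitric oxide treatments of 3 h left the regions near the centromeres without a shift. With GSNO the authors' deposited table calls 0 of 680 in either direction, where 0.0449% of all regions were higher and 0% lower. An unadjusted p under 0.05 was found at 18 of the 680 (2.65%, beside 2.22% of all regions). Limma had 0 calls (0% of all regions), and 30 such members beside 506 of the 12682 arm regions. With GSNO and cPTIO, 0 of 680 were called in the authors' deposited table, against 0.015% higher and 0.0225% lower of all regions. There the unadjusted p was under 0.05 at 12 members (1.76%, beside 3.34% of all regions). In limma, which called 0, it was under 0.05 at 23 members and 657 arm regions. The median folds near the centromeres were 0.00 for both treatments, and on the arms they were also 0.00.

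GSH at 3 h had 1 call among the members, a rise at COR413-PM1, where the authors' deposited table calls 0.105% of all regions higher and 0% lower. The region had 137 and 140 normalised reads with GSH and 59.1 and 60.1 in water, a log2 fold of 1.22 (FDR = 0.000768, the authors' deposited table). The GSH libraries lay above both water libraries. GSNO gave 85.5 and 121 and GSNO with cPTIO 54.2 and 82.6, so the order of groups was GSH, GSNO, GSNO with cPTIO and water, with ranges that overlapped only between the last 2. In limma the rise with GSH was 1.20 ± 0.35 (SE) but missed the threshold (adjusted p = 1.00).

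At 16 h all 3 comparisons share the single water library, and the calls rest on it. GSNO had 10 called higher and 0 lower of 680 in the authors' deposited table, against 0.913% and 0.0225% of all regions, and GSH 17 and 0, against 2.09% and 0.0674%. GSNO with cPTIO had 3 higher and 1 lower, against 0.457% and 0.105% of all regions. The shares near the centromeres were 1.47%, 2.5% and 0.441% for the rises. On the arms 0.883%, 2.07% and 0.457% were called higher. In limma none of the 3 comparisons had a call (0 of 680). Of all regions limma called 0.0898% higher in each of the 3, and 0.00748% lower for GSNO with cPTIO.

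The largest folds at 16 h were at AT2G15830, AT4G08510, IBR1, ALDH3H1, an aldehyde dehydrogenase, and NEK3, a NIMA-related kinase. AT4G08510 (chromosome 4, 5410322 to 5411083) had 7.36 normalised reads in the water library of 16 h, from 5 reads. GSNO gave 65.9 and 109, GSH 72.8 and 110, and GSNO with cPTIO 102 and 70.2. All 6 treated libraries were far above the water library, and the authors' deposited table gives log2 folds of 3.57, 3.63 and 3.55. In limma the smallest adjusted p of the 3 was 0.064. IBR1 (AT4G05530; chromosome 4, 2816410 to 2817027) had 25 in water, 137 and 117 with GSNO, 114 and 108 with GSH, and 78.6 and 85.1 with GSNO and cPTIO. The authors' deposited table gives 2.34 for GSNO, 2.15 for GSH and 1.71, not called, for GSNO with cPTIO. At AT2G15830 the water library had 1 read, the lowest value in any library. The treated libraries differed widely there, with 9 and 136 reads for GSNO, 6 and 89 for GSH, and 34 and 48 for GSNO with cPTIO, so no fold is given.

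At these called regions the water library of 16 h was low beside the water of 3 h as well. Its share of reads was below that of both water libraries of 3 h at 10 of the 10 regions called for GSNO, 17 of 17 for GSH and 3 of 3 for GSNO with cPTIO, and at 39.1% of all 680 members. It held between 1 and 50 reads at these regions. They were called against this library, so a low value in it helped to select them and no more is read from these counts. The regions called higher for GSNO and for GSNO with cPTIO were all among the 17 of GSH. Since this library had no second one beside it, its own deviation and an effect of the treatments cannot be told apart. In limma over all 17 libraries, the difference of the response between 16 h and 3 h was called at 2 members for GSNO, IBR1 and AT4G08510, and at 1 each for GSH and for GSNO with cPTIO. That is 0.294%, 0.147% and 0.147% of the members, beside 0.12%, 0.12% and 0.18% of all regions. Further regions called for both GSNO and GSH in the authors' deposited table were AT2G05120 (1.99 and 2.22), the pseudogenes AT1G45120 (2.05 and 2.2) and AT3G43955 (1.77 and 1.78), the non-coding RNA gene AT1G43765 (1.68 and 1.59) and a region without a gene on chromosome 3, 16070107 to 16070644 (1.78 and 1.85). AT2G14835 was called for GSH (1.66). DDB1A, a subunit of ubiquitin ligase complexes, was called for GSH as well (1.65).

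The only fall at 16 h was at LpxB, an enzyme of lipid A synthesis (AT2G04560; chromosome 2, 1592076 to 1592755). It had 141 normalised reads in water and 19.6 and 56.4 with GSNO and cPTIO, a log2 fold of -1.90 (FDR = 0.0424, the authors' deposited table). GSNO alone gave 80.4 and 90.4 and GSH 80.8 and 86.8, between the water library and the libraries with cPTIO. The limma adjusted p was 0.26.

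The related compounds were also set against each other directly at matched dose and time, in 4 pairs, with limma over all regions. GSNO against GSH and GSNO against GSNO with cPTIO gave 0 calls near the centromeres at 3 h and at 16 h, and 0% of all regions were called in each pair. An unadjusted p under 0.05 was found at 7 and 19 members at 3 h (1.03% and 2.79%) and at 11 and 48 at 16 h (1.62% and 7.06%). Over all regions the shares were 1.88% and 5.07% at 3 h and 1.78% and 7.90% at 16 h. The 95% interval of the difference lay within 1 log2 unit of 0 at 85.6% and 81.8% of the members for these pairs at 3 h, and at 81.3% and 73.8% at 16 h. For GSNO against GSH at 3 h the smallest unadjusted p was at CPZ, with a log2 difference of -2.60 (95% interval -4.55 to -0.65; limma adjusted p = 1.00). That value rests on 1 read in GSNO library a (1.5 normalised reads), since GSNO library b had 81.8 and the GSH libraries 89.4 and 83.4. For GSNO against GSNO with cPTIO at 16 h it was at AT1G34360, with 1.4 (0.58 to 2.22; limma adjusted p = 0.50). These results depended on single libraries: without library b of GSNO with cPTIO, limma had calls among the members in that pair at 16 h. Without library b of GSNO it had calls in both pairs at 3 h. Such fits leave 1 library in a group, and the share of all regions that they called is not given. The intervals do not show that the compounds act alike at the remaining regions.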

How the data were processed

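For every ChIP library a list of peak positions was deposited, along with 7 differential tables over the same 13362 regions. Their group levels and folds are log2 values and each region has a p-value and FDR, all as deposited by the authors. DiffBind and edgeR, and the builds TAIR10 and TAIR9, are named per the submitters' processing notes. No source used here names the aligner, the peak caller or the read filters. The score column of the deposited peak lists holds 0 on every line, so positions alone were used, and 14 lines that run over a whole chromosome were left out. The 20 inputs were not analysed here separately. Coordinates are as the tables give them, and gene names and classes come from the RefSeq annotation TAIR10.1. No genome sequence was used.

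Whole reads of 17 libraries were recovered from the group means (100% of values whole within 1e-08). They were scaled by trimmed means (TMM, trims 0.3 and 0.05) within each time, or over all 17 libraries together for the difference between 16 h and 3 h. Then log2(value + 1) was tested by limma 3.58.1 (R 4.3.3), with Benjamini-Hochberg adjustment over all regions. A fold on this scale understates changes of low regions. The method was tested on simulated data. The main test of each treatment against water is the authors' deposited FDR under 0.05, and the direct comparisons of treatments use limma. For the single water library of 16 h the spread of the other groups was assumed. With 2 biological replicates per group, a p-value reflects the spread between these samples alone. All 3 h comparisons share the same 2 water libraries.

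Regions were named by rule: the 10 largest called rises and falls of each comparison, the 3 largest TSA folds of each of 8 gene lists, the 5 highest and 5 lowest levels per kb, the regions beside the longest empty stretch, and the 3 highest without a gene or at pseudogenes. AT1G34360, DDB1A, AGT, PSBQ-2, GAPB and the second regions of genes were added after their values were seen. Members and lists were chosen with earlier results of these data known.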

Additional observations from a re-analysis of the deposited data

Results flagged for a closer look

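The response at 16 h differed from that at 3 h at 2 regions near the centromeres in limma over all 17 libraries, which called 0.12% of all regions for GSNO, 0.12% for GSH and 0.18% for GSNO with cPTIO. At IBR1 the log2 response to GSNO was 2.49 higher at 16 h than at 3 h (SE 0.48, adjusted p = 0.0272), and the response to GSH 2.43 higher (SE 0.48, adjusted p = 0.0362). Both treated libraries of 16 h lay above the water library of that time in each case. From 3 h to 16 h the treated libraries did not share a direction. Before normalisation GSNO libraries a and b held 74 and 239 reads at IBR1 at 3 h, and 104 and 186 at 16 h. GSH libraries held 115 and 171 at 3 h, and 141 and 171 at 16 h. At AT4G08510 the response to GSNO was 4.01 higher at 16 h (SE 0.82, adjusted p = 0.0480) and that to GSNO with cPTIO 4.2 higher (SE 0.82, adjusted p = 0.0273). The water library of 16 h held 17 reads at IBR1 and 5 at AT4G08510, and the water libraries of 3 h held 117 and 171 at IBR1 and 81 and 169 at AT4G08510. The differences rest on this single water library, and its part in them was not tested.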

How the results depend on the processing

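No paired analysis was possible because the recovered libraries carry no replicate number. Of 336 alternatives over 28 results, 238 stayed within the spread or within 1.5 times the count and 98 moved. A change of sign was not counted apart. The level difference, -0.0435 in the main setting, turned positive with the lowest of 10 classes of level left out. The difference of median folds for GSNO with cPTIO changed sign beyond the spread without its library b at 3 h and without its library a at 16 h. Within the spread, signs also changed in some settings for GSNO and GSH at 3 h and for GSNO with cPTIO at both times. With windows narrowed or widened by 0.5 Mb at each end, the share of peaks was 2.84% or 7.82%, and over the lists of 16 h 8.62%. The level difference was -0.0749 per region and 0.0038 with the lowest class left out. TSA rises numbered 23 with narrowed windows and 30 at an FDR under 0.01. In limma they numbered 24 with either pseudocount, filter or median of ratios, 26 with total reads and 22 without a trend. TSA falls numbered 66, 69 and 72 with narrowed windows, FDR under 0.01 and limma without a trend. Of all regions 10.7% were called higher and 10.1% lower at the authors' FDR under 0.05, and 6.14% and 10.3% in limma. Shares of all regions at FDR under 0.01 and without a trend are not given. Narrowed windows hold fewer regions and widened ones more, so counts here and below do not compare as shares. The TSA difference of median folds was -0.14 with narrowed and -0.13 with widened windows. Within classes of level per region the TSA difference was -0.22 by water and -0.21 by the other treatments. The rise with GSH at 3 h was 0 with narrowed windows and in every limma setting. Rises at 16 h with narrowed windows, widened windows and FDR under 0.01 numbered 5, 19 and 6 for GSNO and 8, 30 and 11 for GSH, and for GSNO with cPTIO 1 and 8 with narrowed and widened windows. They were 0 in limma, and without a trend 2, 2 and 1. The fall with GSNO and cPTIO was 0 with narrowed windows, at FDR under 0.01 and in limma. The stricter peak score could not be run, because every score is 0. The cause was not tested for any of these.

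With each replicate left out in turn, peaks ranged from 4.91% to 5.06%, the level difference from -0.0332 to -0.00839, TSA rises from 3 to 30, TSA falls from 45 to 70 and the TSA difference from -0.18 to -0.14. At 3 h GSNO had 0 to 2 rises (2 without water b) and 0 to 2 falls (2 without GSNO b), GSH 0 to 4 rises (4 without water b), and GSNO with cPTIO 0 to 1 rises and 0 to 2 falls (2 without its library b). At 16 h rises numbered 0 to 0 for GSNO and GSH and 0 to 1 for GSNO with cPTIO, whose falls numbered 0 to 13 (13 without its library b). The median fold near the centromeres minus the arms for GSNO with cPTIO ranged from -0.0388 to 0.0347 at 3 h and from -0.0281 to 0.0319 at 16 h. GSNO against GSH gave 0 to 3 calls at 3 h (3 without GSNO b), and GSNO against GSNO with cPTIO 0 to 2 at 3 h (2 without GSNO b) and 0 to 25 at 16 h (25 without cPTIO b). The single water library of 16 h cannot be left out. Between 95 and 258 reads at the median member limit what a difference can show.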

Other observations

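LHCB2.1 and LHCB2.2 near the centromere of chromosome 2 and CH1 near that of chromosome 1 had more reads in water at 16 h than at 3 h. LHCB2.1 held 14 and 25 reads in the water libraries of 3 h, and 120 in that of 16 h, which had the fewest reads in all. LHCB2.2 held 26 and 1 read in water at 3 h and 91 at 16 h, and CH1 held 1 and 63 at 3 h and 93 at 16 h. Water of 3 h and of 16 h was not compared by a test.

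A peak was present at 649 and 442 of the 680 regions in the 2 water lists of 3 h and at 530 and 397 in those of TSA. The other 6 lists of 3 h ranged from 365 to 643, and the lists differ in length. At 16 h TSA replicate 1 had a peak at 568 members.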
